A study of Mus musculus with 4 samples.

Results

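Angiopoietins and angiopoietin-like genes were followed in aorta of 3-week-old C57BL/6 mice, in 2 knockout (KO) and 2 wild type (WT) libraries. The deleted gene is Ggps1, which encodes GGPPS, the geranylgeranyl diphosphate synthase. The 6 genes described, Angpt1, Angpt2, Angptl1, Angptl2, Angptl4 and Angptl7, were picked by symbol from 24344 distinct gene symbols, with their KO and WT values known, and Angptl7 was picked as one of the largest falls. Their differences between genotypes are therefore given as a description, with no test. Each library is labelled as male and female aorta. Whether animals were pooled, in which cells Ggps1 was deleted and whether KO was conditional are not stated in the labels. GGPPS makes the lipid geranylgeranyl diphosphate, which is attached to Rab and many other small GTPases.

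Angiopoietins are secreted ligands of the endothelial receptor Tie2, the product of Tek. Angpt1, made mainly by cells around the endothelium, activates Tie2 and steadies the vessel wall, whereas Angpt2, made mainly by endothelial cells, activates or blocks it depending on context. Most angiopoietin-like proteins have the same layout, a coiled coil followed by a fibrinogen-like domain. Angiopoietin-like proteins do not act as Tie2 ligands, and they differ in role from blocking lipoprotein lipase (Angptl4) to promoting tissue inflammation (Angptl2).

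The files give FPKM, in which fragments are scaled by transcript length and by library size, a scale meant for comparing levels of different genes. That comparison fails where a listed value does not follow the transcript level, as may be the case for low values here. FPKM values summed to 611767 and 632918 in the KO libraries and to 515927 and 520478 in the WT libraries, and depth is unknown. Ggps1 stood at 1.18 and 1.07 FPKM in KO and at 8.96 and 10.6 FPKM in WT, in the direction of the labels. Differences are given on the log2(FPKM + 1) scale as KO minus WT, which understates the change of low genes, and folds are ratios of mean FPKM. Of 12314 genes that reached 1 FPKM in 2 or more libraries, limma called 4332 higher and 3764 lower in KO at a Benjamini-Hochberg adjusted p under 0.05, and with column totals made equal it called 3095 higher and 5620 lower of 12322. The median log2 difference of all tested genes was 0.03, and -0.20 with equal totals. Contractile smooth muscle markers of aorta were present in all libraries and all 10 were called lower in KO, such as the myosin light chain Myl9, which had 1089.8 ± 237 FPKM in KO and 5408 ± 329 FPKM in WT (mean ± SD, n = 2 each). In bulk tissue, fewer cells of a type and less RNA per cell cannot be told apart.

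Of the 6 genes, 5 passed the filter, and Angpt1, under 1 FPKM in all 4 libraries, did not. Angptl1 passed through its WT libraries alone and could only differ downward. Of the 5, 4 were called lower in KO, where 30.6% of all tested genes were, and Angptl4 was called higher, where 35.2% were. In either direction, 65.7% of all tested genes were called. The genotypes' libraries did not overlap for any of these 5 genes, as was the case for 83.1% of all tested genes, with both KO libraries above both WT libraries for 43.6% and both WT libraries above both KO libraries for 39.6%. These counts follow from how the genes were picked.

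The order of the levels was not the same in the genotypes. In KO it was Angptl2, Angptl4, Angpt2, Angptl7, Angptl1 and Angpt1 from highest to lowest mean FPKM. In WT it was Angptl2, Angptl7, Angpt2, Angptl4, Angptl1 and Angpt1. This is the order of the listed values, and a low one need not mean a low transcript level. Angptl1 and Angpt1 overlapped in their KO libraries, and all other neighbours in either order did not overlap. The closest of these were Angptl4 and Angptl1 in WT, with means 0.357 FPKM apart and a larger SD of 0.0821. Angptl2 held 79.4% and 81.7% of the summed FPKM of the 6 genes in KO and 78.4% and 74.1% in WT. Angptl4 held 12.8% and 9.67% of it in KO and 1.22% and 1.25% in WT, and Angptl7 held 1.57% and 1.90% in KO and 12.1% and 13.7% in WT. Angptl4 and Angptl7 thus stood on opposite sides of Angpt2 in the 2 genotypes.

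**Figure D1:**
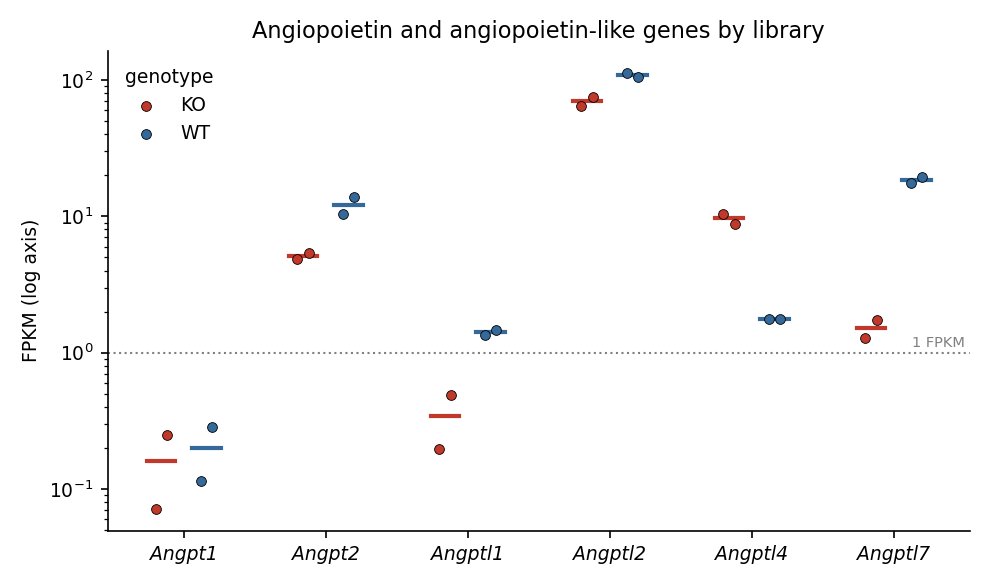
FPKM of each gene in each library on a log axis, with KO points left of WT points and a bar at the mean of 2 libraries. Angptl7 sits at 1.28 and 1.74 FPKM in KO and above 17 FPKM in WT, Angptl4 lies higher in KO, and Angpt1 stays under the dotted line at 1 FPKM.

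Angpt1, the Tie2 agonist, stood at 0.0715 and 0.248 FPKM in KO and at 0.115 and 0.287 FPKM in WT. The genotypes overlapped at this low level, and no fold is read from it. A low value in these files need not mean a low transcript level, since Eln, the elastin gene that aortic cells use heavily, was listed at 0 in all 4 libraries, and Kdr, the main endothelial VEGF receptor, was at 0.174 and 0.232 FPKM in KO and 0.134 and 0.202 FPKM in WT.

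Angpt2, the endothelial ligand, stood at 4.87 and 5.37 FPKM in KO and at 10.5 and 13.7 FPKM in WT. Both KO libraries were below both WT libraries, and the 2 WT libraries differed by 1.31-fold. The mean was 2.36-fold lower in KO, a log2 difference of -1.09 (SE 0.14). Its receptor genes were lower as well. Of 7 genes for Tie receptors and proteins that act on them, limma called 6 lower and 1 higher, with a median log2 difference of -0.95 (-0.38 with a pseudocount of 5) against 0.03 over all tested genes.

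Tek, the Tie2 receptor gene, was at 2.44 and 3.48 FPKM in KO and at 9.92 and 9.65 FPKM in WT, with a log2 difference of -1.46 (limma adjusted p = 7.99e-07, SE 0.14). Tie1, the related receptor that pairs with Tie2, was at 9.25 and 9.87 FPKM in KO and 20.1 and 18.8 FPKM in WT (limma adjusted p = 6.6e-06). Ptprb, the phosphatase VE-PTP that takes phosphate off Tie2, was at 2.65 and 3.31 FPKM in KO and 12.6 and 13.0 FPKM in WT (limma adjusted p = 4.09e-08). None of these 3 genes overlapped between genotypes. Svep1, a large extracellular matrix protein reported to bind Tie1, fell 3.69-fold by the ratio of means and passed the filter through its WT libraries, so it could be called only lower. Ecscr, an endothelial surface protein, fell 1.59-fold. After removal of length and GC trends, the log2 difference of Svep1 was -0.57 in place of -1.01, and that of Ecscr -1.10 in place of -0.58. Adam17, a protease that sheds surface receptors, was called lower at a log2 difference of -0.37, a call that ended without WT library 1 or 2 (limma adjusted p = 0.161 and 0.0658). Mmp14, a membrane-bound matrix metalloprotease reported to cut Tie2 from the cell surface, rose to 268.1 and 254.5 FPKM in KO, against 100.5 and 95.3 FPKM in WT (log2 difference 1.41, SE 0.095, limma adjusted p = 2.41e-08).

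Endothelial markers moved the same way in the same libraries. Of 10 markers, 9 were tested and 8 called lower, with a median of -1.27, and their summed level was 112.8 and 124 FPKM in KO and 300.2 and 308 FPKM in WT. Pecam1, an adhesion molecule of endothelial junctions, was at 40.1 ± 8.43 FPKM in KO and 152.6 ± 7.29 FPKM in WT, and Vwf, von Willebrand factor, at 9.70 ± 0.67 FPKM in KO and 28.3 ± 1.86 FPKM in WT. Esam, another junction protein, was not called (16.6 ± 1.52 FPKM in KO, 18.2 ± 2.70 FPKM in WT). The part of these cells in the values of Angpt2 and its receptors was not tested. Set against Pecam1 in the same library, Angpt2 amounted to 14.3 and 11.7 FPKM per 100 FPKM of Pecam1 in KO and to 7.10 and 8.71 in WT, and Tek to 7.17 and 7.55 in KO and 6.73 and 6.12 in WT. Tie1 amounted to 27.1 and 21.4 in KO and 13.6 and 11.9 in WT. These ratios depend on the marker. By the ratio of means, Pecam1 fell 3.81-fold, more than every other tested endothelial marker except Emcn, at 4.76-fold. Cdh5, another marker, also amounted to more per 100 FPKM of Pecam1, at 11.2 and 8.51 in KO and 6.82 and 7.21 in WT. Per 100 FPKM of Vwf, Angpt2 amounted to 52.8 in each KO library and to 35.4 and 51.0 in WT, and Tie1 to 100.25 and 97.0 in KO and 67.9 and 69.6 in WT. Tek overlapped between genotypes on that scale, at 26.5 and 34.2 in KO and 33.5 and 35.8 in WT. For Ptprb the ratio to Pecam1 was lower in KO, at 7.78 and 7.20 against 8.55 and 8.25 in WT. Ligand over receptor, Angpt2 over Tek, was 1.99 and 1.55 in KO and 1.06 and 1.42 in WT. The 3 tested genes with the pattern over the 4 libraries most like that of Angpt2 were Lax1, Fap and Kit, at Euclidean distances of 0.0709, 0.0729 and 0.0838 on the log2 scale after centring each gene. Such a distance mostly follows the log2 difference between genotypes, which was known when the 6 genes were picked. It was -1.14, -1.06 and -1.12 for these genes and -1.09 for Angpt2. By the ratio of means, Kit fell 4.50-fold and Angpt2 2.36-fold. Shared control was not tested. Fap, a protease of activated fibroblasts, was at 2.44 and 2.97 FPKM in KO and 5.70 and 7.82 FPKM in WT.

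**Figure D2:**
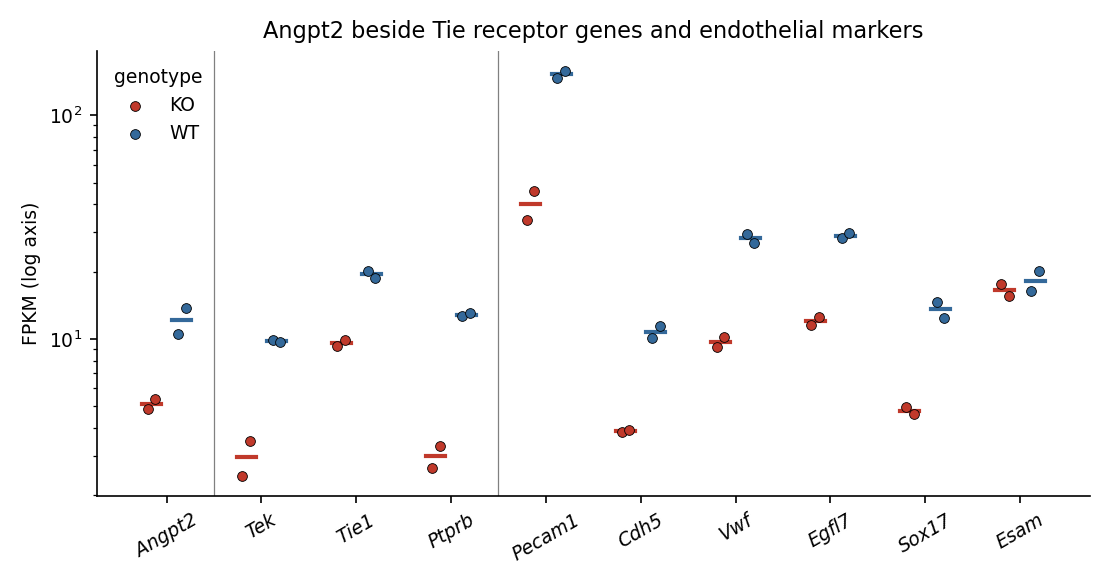
FPKM on a log axis of Angpt2 (left), Tie receptor genes (middle) and endothelial markers (right), KO points left of WT points, bars at the mean of 2 libraries. All but Esam lie lower in both KO libraries than in both WT libraries.

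Genes of signalling below Tek did not move one way. Of 15 tested genes, 6 were called higher and 4 lower. These counts are near the shares over all tested genes, 35.2% higher and 30.6% lower. The median of the list, 0.06, turned to -0.20 with equal column totals and to -0.07 with a filter of 5 FPKM. Foxo1, the transcription factor that Akt restrains and that drives Angpt2 in endothelial cells, was at 10.0 ± 0.83 FPKM in KO and 16.8 ± 1.06 FPKM in WT (log2 difference -0.69, limma adjusted p = 0.000169), and the difference was -0.38 with length and GC trends removed. Grb14, an adaptor that can bind Tie2, fell by 1.06 on the log2 scale. Dok2, an adaptor of Tie2 that leukocytes also express, was at 3.81 ± 0.54 FPKM in KO and 1.21 ± 0.02 FPKM in WT (limma adjusted p = 4.22e-06). All 7 general leukocyte markers were called higher in KO, 2 of them with the filter passed through KO alone (summed level 224 and 175 FPKM in KO, 15.3 and 16.1 FPKM in WT), and their part in the Dok2 value was not tested.

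Growth factors that act with angiopoietins went in both directions. Of 10 genes of the VEGF axis, 8 were tested, 4 called higher and 2 lower, where 35.2% of all tested genes were called higher and 30.6% lower. The median of the list, 0.15, turned to -0.10 with equal column totals and to -0.06 without KO library 2. Vegfa, the main endothelial growth factor, was at 48.2 and 49.1 FPKM in KO and 23.0 and 20.5 FPKM in WT (log2 difference 1.13, SE 0.11, limma adjusted p = 7.11e-07). Pgf, placental growth factor, rose 3.62-fold. Nrp2, a co-receptor, rose to 1.31 ± 0.10 FPKM in KO, against 0.290 ± 0.117 FPKM in WT, and passed the filter through its KO libraries. Vegfc fell 1.99-fold, and Figf, the older symbol of the Vegfd gene, fell 2.15-fold. The call of Vegfb as higher, at a log2 difference of 0.32, ended in 5 of the 11 alternatives, among them equal column totals (limma adjusted p = 0.604), removal of transcript length and GC trends (0.134), and without KO library 1 or WT library 1 or 2 (0.0707, 0.068 and 0.239).

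Angptl7 is a secreted protein known from the eye, where human ANGPTL7 influences pressure, and from cartilage, tendon and skin. It stood at 1.28 and 1.74 FPKM in KO and at 17.5 and 19.3 FPKM in WT. Both KO libraries lay far below both WT libraries, and libraries of 1 genotype differed by 1.36-fold in KO and 1.11-fold in WT. The mean was 12.2-fold lower in KO, a log2 difference of -2.95 (SE 0.13), the sixth lowest of all 12314 tested genes. By mean FPKM its level exceeded that of 53.7% of all rows in KO and 83.0% in WT. Most alike in pattern were Adam11, Ppp1r1b and Rhobtb1, at Euclidean distances of 0.166, 0.213 and 0.215. Adam11, a cell surface protein of the ADAM family, was at 3.81 and 4.04 FPKM in KO and 33.3 and 36.5 FPKM in WT.

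Angptl1, a secreted protein with anti-angiogenic activity, stood at 0.197 and 0.489 FPKM in KO and at 1.35 and 1.46 FPKM in WT. The genotypes did not overlap, but the 2 KO libraries differed by 2.48-fold at this low level. The mean was 4.09-fold lower in KO, and the log2 difference of -0.85 (SE 0.13) was -1.85 with a pseudocount of 0.1 and -0.26 with a pseudocount of 5. The genes most alike in pattern were Kdm4b, Scn7a and Setbp1, at distances of 0.0259, 0.0259 and 0.0289.

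Angptl2, which binds integrin α5β1 and PirB and is known to promote inflammation, was the most abundant of the family at 64.9 and 74.8 FPKM in KO and 113.2 and 104.8 FPKM in WT. The KO libraries were both lower, by 1.56-fold in the mean and by a log2 difference of -0.64 (SE 0.11). Tmem108, Tmem65 and Ggta1 were most alike in pattern, at distances of 0.00714, 0.0210 and 0.0290. Tmem108 was far lower in level, at 1.13 FPKM in the mean of WT, and fell 3.08-fold by the ratio of means.

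Promoters are shown for the 3 of the 6 genes that have an entry in the RefSeq table, Angptl1, Angptl2 and Angptl7, which were lower in KO together. Each line holds the 250 bases before the RefSeq start, 5′ to 3′ on the gene's strand, in build GRCm38.p6, with capitals for motif matches.
Angptl7 (chr4:148500463-148500712, minus strand): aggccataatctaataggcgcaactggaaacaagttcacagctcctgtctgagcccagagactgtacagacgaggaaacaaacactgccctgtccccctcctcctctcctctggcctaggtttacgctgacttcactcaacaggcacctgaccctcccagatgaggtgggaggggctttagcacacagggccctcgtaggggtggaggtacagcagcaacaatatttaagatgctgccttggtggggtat
Angptl1 (chr1:156838773-156839022, plus strand): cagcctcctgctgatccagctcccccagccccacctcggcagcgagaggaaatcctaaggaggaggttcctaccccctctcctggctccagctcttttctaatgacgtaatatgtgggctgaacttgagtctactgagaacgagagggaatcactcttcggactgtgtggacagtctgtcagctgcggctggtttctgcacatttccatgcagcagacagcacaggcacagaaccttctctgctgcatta
Angptl2 (chr2:33215711-33215960, plus strand): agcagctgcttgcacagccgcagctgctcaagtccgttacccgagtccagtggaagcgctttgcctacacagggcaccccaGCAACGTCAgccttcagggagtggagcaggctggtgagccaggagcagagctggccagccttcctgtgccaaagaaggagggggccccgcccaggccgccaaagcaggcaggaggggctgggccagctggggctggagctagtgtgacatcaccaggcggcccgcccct
Both strands were searched for the TATA box TATAAA, the TEAD-bound MCAT element CATTCC, the AP-1 site TGANTCA, the SRF-bound CArG box, the hypoxia response core ACGTG and the antioxidant response core TGACNNNGC. They occur in 13.0%, 12.6%, 6.87%, 1.40%, 16.6% and 10.15% of 27025 promoter windows of this length, in that order. The only match was an antioxidant response core on the opposite strand of Angptl2, at 169 to 161 bases before the start. Bases just after the RefSeq start were found in the longest GENCODE transcript for Angptl7 and Angptl1 but not for Angptl2. The Angptl2 window ends at 33215960, before the GENCODE gene start at 33216069. That of Angptl1 lies inside the GENCODE gene, which starts at 156838562. The Angptl2 window is thus not checked as the promoter of the transcript measured here. A match describes the letters and not a bound site. GC content of the windows was 54.4% for Angptl7, 54.8% for Angptl1 and 66.8% for Angptl2. Angpt1, Angpt2 and Angptl4 are named only.

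Receptors reported for these proteins went in both directions. Of 8 genes, 3 were called higher and 1 lower, where 35.2% of all tested genes were called higher and 30.6% lower. The median of the list, 0.03, turned to -0.22 with equal column totals and to -0.01 without KO library 2. Itga5, the α5 integrin chain, was at 141 and 156 FPKM in KO and 75.3 and 94.9 FPKM in WT (log2 difference 0.81, SE 0.12, limma adjusted p = 3.79e-05). Its partner chain Itgb1 was not called, at 359 ± 56.6 FPKM in KO and 420.1 ± 23.6 FPKM in WT. Pirb, the mouse receptor of leukocytes for Angptl2, rose to 1.99 and 1.91 FPKM in KO, against 0.143 and 0.283 FPKM in WT, and passed the filter through its KO libraries (limma adjusted p = 7.51e-07). Of 10 macrophage markers, 9 rose, 3 of them with the filter passed through KO alone, and 1 fell (median 1.99, summed level 361.9 and 313 FPKM in KO, 66.7 and 72.9 FPKM in WT). Lyz2, lysozyme, was at 151.6 ± 19.2 FPKM in KO and 21.1 ± 1.67 FPKM in WT. The part of these cells in the Pirb value was not tested. Cdh11, a cadherin of mesenchymal cells, rose by 0.64 on the log2 scale. Itgb5, the β5 integrin chain, was called lower, and that call ended without WT library 2 (limma adjusted p = 0.0905).

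Of markers of cells that could carry the 4 genes with lower KO values, those of fibroblasts, pericytes and smooth muscle were mostly lower. Those of cartilage and tendon were called in both directions. Of 10 adventitial fibroblast markers, 7 fell and 2 rose (median -0.78, summed level 585 and 603.5 FPKM in KO, 739 and 792 FPKM in WT). Clec3b, a fibroblast marker, fell 3.32-fold while Ly6a, the stem cell antigen Sca-1, rose 3.19-fold, with a log2 difference of 1.65 that was 1.07 with length and GC trends removed. Of 7 pericyte markers, 5 fell and 1 rose (median -0.88), and all 10 contractile smooth muscle markers fell (median -2.24, summed level 4941 and 6554 FPKM in KO, 20865 and 23227 FPKM in WT). Of 8 tested cartilage and tendon markers, 2 rose, 3 fell and 3 were not called, with a median of -0.26. Summed over the list, the level was 177 and 202.5 FPKM in KO and 265 and 295 FPKM in WT. Fmod, fibromodulin, a matrix protein of tendon and cartilage, fell 6.07-fold, and Sox9, the transcription factor of cartilage cells, rose 18.4-fold and passed the filter through its KO libraries. Scx, the other marker of this list that rose, was 2.51-fold higher in KO. Cytl1 and Comp, the other markers of it called lower, were 2.91-fold and 1.33-fold lower. The part of any of these cells in the levels of Angptl1, Angptl2 and Angptl7 was not tested.

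Angptl4 was the 1 gene of the 6 with higher values in KO. Its product blocks lipoprotein lipase, the enzyme that frees fatty acids from circulating fat, and its transcription is known to answer to fatty acids through PPARs, to hypoxia and to glucocorticoids. It stood at 10.4 and 8.85 FPKM in KO and at 1.76 FPKM in each WT library. The mean was 5.47-fold higher in KO, a log2 difference of 1.94 (SE 0.13), which ranks 369 from the highest of all tested genes. Fdx1l, Gins2 and Relb were most alike in pattern, at distances of 0.0384, 0.0435 and 0.0515. Relb, a subunit of the inflammatory factor NF-κB, was at 29.6 and 25.9 FPKM in KO and 6.36 and 6.17 FPKM in WT.

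Of 14 genes of the lipase system around Angptl4, 10 were tested, 3 called higher and 5 lower, with a median of -0.24 (-0.08 with length and GC trends removed). Over all tested genes, 35.2% were called higher and 30.6% lower. Lpl, lipoprotein lipase itself, was at 7.27 and 8.87 FPKM in KO and 6.01 and 5.67 FPKM in WT. It was called higher at a log2 difference of 0.40 (SE 0.13, limma adjusted p = 0.014), and the call ended in 5 of the 11 alternatives, with adjusted p from 0.0515 with no filter to 0.206 with equal column totals, and without KO library 2 or WT library 1 or 2 (0.0627, 0.0536 and 0.113). Angptl4 over Lpl was 1.43 and 0.998 in KO and 0.293 and 0.311 in WT. Gpihbp1, which anchors the lipase on capillary endothelium, was under 1 FPKM in all libraries, at 0.995 and 0.212 FPKM in KO and 0.883 and 0.581 FPKM in WT. Cd36, a fatty acid transporter that macrophages and endothelium share, rose 2.31-fold (limma adjusted p = 5.78e-05). Of the proprotein convertases, some of which cut ANGPTL4, Pcsk6 fell to 0.967 and 1.56 FPKM in KO, against 5.82 and 4.68 FPKM in WT, and Pcsk5 had a log2 difference of -0.66, which was -0.33 with length and GC trends removed. The call of Furin as lower, at a log2 difference of -0.26, ended without KO library 1 or WT library 1 or 2 (limma adjusted p = 0.0669, 0.26 and 0.19), and the difference turned to 0.02 with length and GC trends removed. Bmp1, a protease of the tolloid family, was at 124.8 ± 5.81 FPKM in KO and 178.3 ± 17.2 FPKM in WT (log2 difference -0.51, limma adjusted p = 0.000606), and the difference was -0.26 with length and GC trends removed. The call of Lmf1, a lipase maturation factor, as higher ended in 6 of the 11 alternatives, among them without KO library 1 or WT library 1 or 2 (limma adjusted p = 0.0789, 0.286 and 0.168). That of Vldlr, a lipoprotein receptor, as lower ended without WT library 2 (limma adjusted p = 0.0515), and its log2 difference of -0.55 was -0.32 with length and GC trends removed.

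Genes that share the known inducers of Angptl4 went in both directions, those of PPARs and of glucocorticoids more often lower. Of 17 tested PPARs and targets, 3 rose and 9 fell (median -0.39, -0.16 with a pseudocount of 5 and -0.25 without WT library 1). Among all tested genes, 35.2% were called higher and 30.6% lower. Pparg, counted as higher, passed the filter through KO alone, and Acot1, counted as lower, through WT alone. Each could be called in that direction only. Plin2, which coats lipid droplets, was at 38.5 ± 1.25 FPKM in KO and 14.7 ± 1.38 FPKM in WT, and Acot2, a mitochondrial thioesterase, rose 2.68-fold. Pdk4, a kinase that spares glucose, was at 4.04 and 6.16 FPKM in KO and 13.9 and 15.2 FPKM in WT (limma adjusted p = 3.41e-06). Fabp4, a fatty acid carrier of fat and endothelium, fell 1.94-fold.

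Of 20 hypoxia targets, Vegfa among them, 10 rose and 6 fell, where 35.2% of all tested genes were called higher and 30.6% lower. Car9, 1 of the 6, passed the filter through WT alone and could be called only lower. The median of the list, 0.12, turned to -0.10 with equal column totals and was 0.52 with a filter of 5 FPKM. It lay between 0.03 without KO library 2 and 0.34 without WT library 1. The glycolytic genes Pgk1 and Eno1 rose 3.73-fold and 2.58-fold, and the glucose transporter Slc2a1 rose 2.18-fold (limma adjusted p = 2.32e-09, 2.16e-07 and 5.63e-07). Adm, adrenomedullin, a vasodilator peptide, was at 2.35 and 3.66 FPKM in KO and 8.87 and 12.8 FPKM in WT, and Pfkfb3, a regulator of glycolysis, fell 2.12-fold.

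Of 12 genes in the list of glucocorticoid targets, which includes the receptor gene Nr3c1 itself, 10 fell and 2 rose (median -0.89). Nr3c1 was among those that fell, by 1.96-fold. Shares over all tested genes were 35.2% called higher and 30.6% called lower. Per1, a clock gene that glucocorticoids induce, was at 22.6 and 20.5 FPKM in KO and 57.4 and 56.4 FPKM in WT, and Zbtb16, a transcription factor that they induce, fell 4.46-fold (limma adjusted p = 9.66e-08 and 2.19e-07). The 2 that rose were the metallothioneins Mt1 and Mt2, which also answer to metals, with Mt2 5.57-fold higher and Mt1 2.25-fold higher. The log2 difference of Mt1 was 1.18, and 0.71 with length and GC trends removed. These lists and Angptl4 come from the same 4 libraries.

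**Figure D3:**
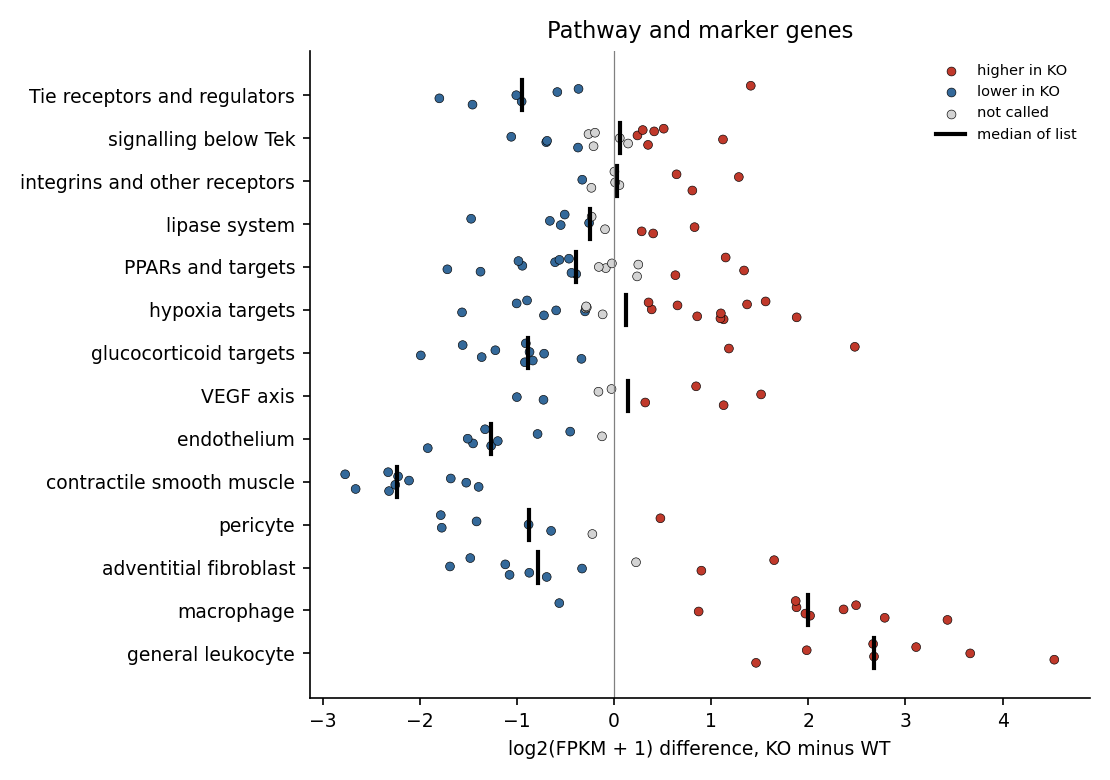
Log2(FPKM + 1) difference, KO minus WT, of each tested gene (points, coloured by the limma call at an adjusted p under 0.05) in each pathway or marker list, with a bar at the list's median. Tie receptor, glucocorticoid, endothelial and smooth muscle lists lie mostly left of 0, macrophage and leukocyte lists right of 0, and the hypoxia list on both sides.

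Fat around the aorta is a known source of Angptl4. Of 10 adipocyte markers, 6 were under 1 FPKM in all libraries, among them Adipoq, adiponectin, at 0.368 and 0.194 FPKM in KO and 0.783 and 0.0912 FPKM in WT, and Plin1, at 0.0534 and 0.0340 FPKM in KO and 0.111 and 0.106 FPKM in WT. Lep, leptin, was listed at 0 in both KO libraries and 1 WT library. The summed level of the list was 56.4 and 53.9 FPKM in KO and 50.5 and 54.0 FPKM in WT, most of it from Pnpla2, a lipase of many cell types. The median of the 4 tested was 0.06, and it was -0.15 with equal column totals and -0.20 with length and GC trends removed. It lay between 0.0093 without KO library 2 and 0.29 without WT library 1. Cebpa, a factor of fat cells and of myeloid cells, rose 6.19-fold, and Cidea, a lipid droplet protein of brown fat, fell 16.2-fold and passed the filter through its WT libraries. Macrophages, which can also express Angptl4, had higher markers in KO as given above, and their part in the Angptl4 value was not tested.

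Among the other genes of the family, Angptl6, a secreted growth factor known mainly from liver, was the 1 that passed the filter. It was at 19.96 and 18.9 FPKM in KO and at 2.27 and 1.78 FPKM in WT. The difference, 9.60-fold by the means and a log2 difference of 2.76 (limma adjusted p = 6.93e-10, SE 0.13), kept its direction and its call in all 11 alternatives, over a range of 1.80 to 3.21. Angptl6 was not among the 6 picked genes, and in both KO libraries its FPKM exceeded those of Angptl4, Angpt2 and Angptl7. Of its 1582 exon bases, 265 also lie in exons of A230050P20Rik on the opposite strand, which was at 5.35 and 4.48 FPKM in KO and 4.19 and 3.47 FPKM in WT. The strand setting of the counting is unknown here, so reads of that stretch may not be told apart. Angpt4, the third mouse angiopoietin, was at 0.319 and 0.308 FPKM in KO and 0.807 and 2.32 FPKM in WT. Angptl8, listed under its older symbol Gm6484, stayed under 1 FPKM in all libraries.

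**Figure D4:**
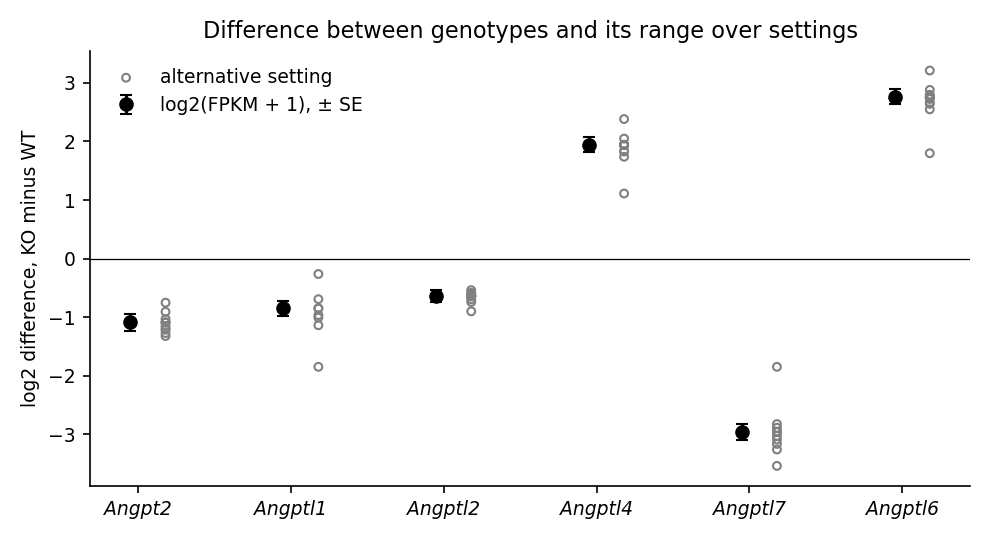
Log2 difference, KO minus WT, of the 5 tested genes and Angptl6 (black points with SE) beside the same difference under each alternative setting (open circles). Angptl7 and Angptl6 lie furthest from 0, at -2.95 and 2.76, and no circle crosses 0.

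Gene position was not part of how the genes were picked. In the mm10 annotation, 4 of the 6 lie whole inside a larger gene on the opposite strand. The share of all annotated genes that lie so was not computed, so whether this count is unusual is not known. Angptl7 (chr4:148495183-148500460, minus strand, 5 exons) lies in Mtor, the gene of the growth kinase mTOR. Angpt2 (chr8:18690263-18741562, minus strand, 9 exons) lies in Mcph1, a gene of chromosome condensation. Angptl1 (chr1:156838562-156861078, plus strand, 5 exons) lies in Ralgps2 and Angptl2 (chr2:33216069-33247717, plus strand) in Ralgps1, which are paralogous exchange factors for Ral GTPases. None of these 4 pairs shares an exon base. Angptl4 (chr17:33773750-33781830, minus strand) and Angpt1 (chr15:42424723-42676977, minus strand) lie inside no other protein-coding gene. On the opposite strand, the antisense gene Gm17473 shares 737 of the 5205 exon bases of Angpt1, and the unclassified gene Gm37802 shares 465 of the 2841 exon bases of Angptl1, and neither was analysed here.

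Of the genes that hold another, Mtor was at 4.57 and 5.62 FPKM in KO and at 7.36 and 8.09 FPKM in WT, a 1.52-fold difference of means beside 12.2-fold for Angptl7, and its call as lower (limma adjusted p = 0.00305) ended with length and GC trends removed (0.303). Mcph1 was higher in KO, at 1.42 and 1.54 FPKM against 0.787 and 0.828 FPKM in WT (limma adjusted p = 0.0044), and it passed the filter through its KO libraries, so it could be called only higher. Ralgps1 was at 0.884 and 0.973 FPKM in KO and 1.72 and 1.43 FPKM in WT, and it passed the filter through its WT libraries. Its call as lower ended without KO library 1 and after removal of length and GC trends (limma adjusted p = 0.0752 and 0.124). Ralgps2 was at 0.196 and 0.110 FPKM in KO and 0.145 and 0.156 FPKM in WT, with overlap. The genes beside Angptl4, Rab11b and Kank3, were 1.39-fold and 1.69-fold lower in KO, with a log2 difference for Rab11b of -0.46 that was -0.28 with length and GC trends removed. Between transcripts of any 2 of the 10 family genes the longest identical stretch was 20 bases.

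**Figure D5:**
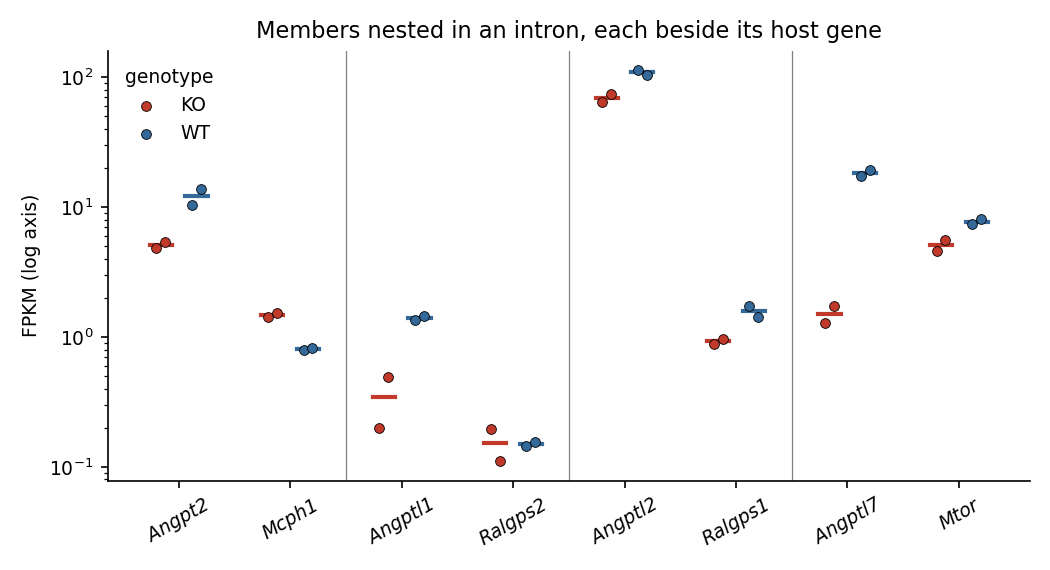
FPKM on a log axis of each nested gene and, to its right, the gene that holds it, KO points left of WT points, bars at the mean of 2 libraries. Angpt2 is lower and its host Mcph1 higher in KO, and the means differ 12.2-fold for Angptl7 and 1.52-fold for its host Mtor.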

How the data were processed

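RNA of 4 mouse aorta libraries was measured, 2 KO and 2 WT, grouped by the genotype label. Values were deposited as FPKM, per the file headers, which misspell the unit, in a file for each library. Per the submitters' processing notes, the authors used DESeq2 1.16.1, featureCounts 1.5.0-p3, HISAT2 2.0.5 and build mm10, with no role given. The program behind the FPKM values and the strand setting are unknown here. Files list 24346 rows, 6804 of them at 0 in all libraries, and depth is unknown. On log2(FPKM + 1), differences were fitted in limma 3.58.1 under R 4.3.3, the prior variance following mean level, for genes that reached 1 FPKM in 2 or more libraries, with Benjamini-Hochberg adjustment over all of them. This test was checked on simulated data with few changed genes, balanced in direction, independent noise and no shift between column totals. That check does not cover the many calls and unequal totals of these libraries. The spread behind each p-value is that between these libraries and may be technical, and total degrees of freedom were 13.4. With 2 libraries a side, the smallest two-sided p of an exact permutation test is 0.333, so none was used. The 6 genes and all gene lists were chosen with earlier results of these data known. Every gene of the short lists could be named, and of the longer ones up to 4 called genes per direction by smallest p. Eln, Esam and the low adipocyte markers were named after their values were seen. A few genes of the lists are not reported here by name. Similar patterns were found by Euclidean distance of log2(FPKM + 1) values centred per gene. With 2 genotypes, this distance mostly matches genes by their log2 difference, so genes of unlike level and fold can be alike. It is no test of shared control. Positions, overlaps and transcripts are from GENCODE M21 (mm10) and promoters from RefSeq. Alternatives were other pseudocounts, filters and scalings, robust estimation, leaving out each library and, added after seeing the data, removal of length and GC trends (mgcv 1.9.3, 96.3% of tested genes matched).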

Additional observations from a re-analysis of the deposited data

How the results depend on the processing

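The differences of the 5 tested genes of the 6 kept their direction in all 52 alternatives that gave a value. They ranged from -3.54 to -1.85 for Angptl7, -1.32 to -0.75 for Angpt2, -1.85 to -0.26 for Angptl1, -0.90 to -0.54 for Angptl2 and 1.11 to 2.38 for Angptl4. Angptl1 gave no value with a filter of 5 FPKM or without either WT library, since too few libraries then reached the filter. Counts of genes higher in KO lay between 3488 and 3978 when 1 library was left out and counts of genes lower between 2726 and 4078. Over 69 other named genes, 27 of 735 alternatives ended a call, in 9 genes. A pseudocount of 5 brought the log2 differences of 26 of these genes over 1.5 times nearer 0, which follows from the larger pseudocount at low levels, and a pseudocount of 0.1 raised those of 5 genes by as much. Equal column totals enlarged 5 differences by over 1.5 times and shrank 4, and removal of length and GC trends enlarged 1 and shrank 12. The log2 difference of Furin turned to 0.016 with length and GC trends removed, and the medians of the signalling (-0.069 and -0.20), integrin (-0.22 and -0.0097), hypoxia (-0.0985), VEGF (-0.10 and -0.062) and adipocyte lists (-0.15 and -0.20) turned under settings named in the text. When 1 library was left out, the integrin median lay between -0.0097 and 0.11 and the VEGF median between -0.062 and 0.17. With equal column totals, these turns go with a median of all tested genes of -0.20. That median was -0.062 without KO library 2, -0.034 with length and GC trends removed and 0.065 with a filter of 5 FPKM. The cause of the turns under these other settings was not tested. No paired analysis was possible because the labels number the 4 libraries in 1 run across the genotypes and give no number to both, and library 1 or 2 of a genotype is only a name. Depth is unknown, so the precision of low values, such as those of Angpt1 and Angptl1, rests on 2 libraries per genotype.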
